A study of Mus musculus with 16 samples.

Results

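The T cell receptor complex and its first signalling steps were followed through 9 genes. These were chosen by name for their place in the complex, with earlier results of these data known. They are Cd8a and Cd8b1 (the 2 chains of the CD8 coreceptor), Cd3e, Cd3d, Cd3g and Cd247 (the CD3 and zeta chains), Lck and Zap70 (the kinases), and Lat (the adaptor). All 9 were among the 13275 genes of the RNA count table. Peaks of open chromatin that overlapped their gene bodies, extended by 2 kb at each end, formed 31 of 73648 regions in cells before transfer and 39 of 72327 regions in cells recovered from tumours.

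The cells were CD8+ T cells of Pmel mice (a strain with a transgenic T cell receptor for a melanocyte antigen) crossed to a reporter that tags the autophagosome protein LC3 with GFP and RFP. Stimulation with anti-CD3 and anti-CD28 antibody (2 µg/ml each) lasted 3 days in 100 IU/ml IL2, after which the cells were given carbon monoxide (CO) for 24 h and sorted as LC3-GFP positive or LC3-GFP negative. RNA libraries were made from 2 positive and 2 negative samples, and open chromatin was measured by ATAC-seq (Tn5 transposase cuts accessible DNA) in 2 more of each (in vitro). For in vivo ATAC-seq, sorted positive or negative cells were given to C57BL/6 mice bearing B16-F10 melanoma for 12 days, and 15 days later Vβ13+CD8+ cells were sorted from the tumours of 4 mice per group. Every library, negative ones included, came from cells that had been given CO and CD3 and CD28 antibodies, and cells without CO were not analysed here. Whether the RNA and in vitro replicates were separate animals or cultures is not in the labels, and p-values from them therefore describe the spread of these samples only, which may be technical.

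Cytotoxic T cells see peptide on class I MHC through the receptor's alpha and beta chains, which have no signalling tails of their own. The CD3 and zeta chains carry the tyrosine motifs that Lck, brought in by CD8, phosphorylates. Zap70 binds these motifs and phosphorylates Lat, which gathers the enzymes that start calcium, Ras and NF-kB signalling. The constant-region genes of the receptor chains were not analysed here.

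RNA totals were 17557628 and 15605902 estimated counts in positive replicates 1 and 2, against 15850657 and 14567540 in negative replicates 1 and 2. The share of counts from the ribosomal RNA gene Rn45s was 1.43% and 1.51% in the positive libraries, against 3.20% and 3.58% in the negative libraries. The labelled cell type was matched by Cd8a at 524 to 618 CPM (counts scaled by TMM library size) and Cd4 at 4.40 CPM or less in each library. The in vitro ATAC lists of positive cells held 63761 and 53869 peaks, against 56476 and 49634 for negative cells. In vivo, positive lists held 27406 to 37477 peaks, against 33704 to 55171 for negative lists.

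Promoter sequence was available for 8 of the 9 genes, as 11 promoters of 300 bases each (250 before and 50 after the gene start), from RefSeq on GRCm38.p6. The promoters of 4 genes whose RNA differed between the groups are shown, with the paired Lck promoters, since both of those lay under peaks in every ATAC library. Capitals mark matches, on either strand, to 5 motifs that are spelled out after the sequences, and no match overlapped another.
Cd8a promoter, chr6:71373177-71373476, plus strand: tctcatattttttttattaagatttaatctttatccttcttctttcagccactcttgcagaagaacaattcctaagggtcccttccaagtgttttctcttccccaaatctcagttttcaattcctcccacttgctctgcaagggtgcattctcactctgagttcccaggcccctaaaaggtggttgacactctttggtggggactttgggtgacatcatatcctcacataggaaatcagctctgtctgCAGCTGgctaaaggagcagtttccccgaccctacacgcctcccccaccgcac
Cd3e promoter, chr9:45009562-45009861, minus strand: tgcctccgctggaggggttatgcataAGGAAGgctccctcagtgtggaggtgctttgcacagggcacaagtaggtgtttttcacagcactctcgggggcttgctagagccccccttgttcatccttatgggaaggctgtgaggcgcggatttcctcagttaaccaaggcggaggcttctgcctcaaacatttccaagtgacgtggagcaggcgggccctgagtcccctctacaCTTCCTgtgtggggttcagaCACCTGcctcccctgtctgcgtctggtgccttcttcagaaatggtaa
Cd3d promoter, chr9:44981536-44981835, plus strand: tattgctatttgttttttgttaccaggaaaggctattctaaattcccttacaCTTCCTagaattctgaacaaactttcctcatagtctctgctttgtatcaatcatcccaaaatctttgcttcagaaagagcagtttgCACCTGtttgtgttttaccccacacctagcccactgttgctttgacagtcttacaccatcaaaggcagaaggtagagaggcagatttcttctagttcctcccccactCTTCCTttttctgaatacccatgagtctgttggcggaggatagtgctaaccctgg
Cd3g promoter, chr9:44980382-44980681, minus strand: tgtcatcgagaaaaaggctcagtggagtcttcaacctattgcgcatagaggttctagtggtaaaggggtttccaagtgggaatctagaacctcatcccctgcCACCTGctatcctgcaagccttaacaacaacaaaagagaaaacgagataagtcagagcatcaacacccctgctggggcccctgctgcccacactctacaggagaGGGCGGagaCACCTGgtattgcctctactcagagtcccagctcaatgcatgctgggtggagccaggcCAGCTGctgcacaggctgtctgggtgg
Lck distal promoter, chr4:129573592-129573891, minus strand: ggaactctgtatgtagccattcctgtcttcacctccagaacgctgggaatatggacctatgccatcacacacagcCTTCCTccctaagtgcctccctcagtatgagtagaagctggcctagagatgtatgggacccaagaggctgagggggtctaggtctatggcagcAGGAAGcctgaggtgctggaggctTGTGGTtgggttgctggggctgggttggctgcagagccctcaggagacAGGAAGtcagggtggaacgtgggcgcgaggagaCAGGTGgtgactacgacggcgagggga
Lck proximal promoter, chr4:129558323-129558622, minus strand: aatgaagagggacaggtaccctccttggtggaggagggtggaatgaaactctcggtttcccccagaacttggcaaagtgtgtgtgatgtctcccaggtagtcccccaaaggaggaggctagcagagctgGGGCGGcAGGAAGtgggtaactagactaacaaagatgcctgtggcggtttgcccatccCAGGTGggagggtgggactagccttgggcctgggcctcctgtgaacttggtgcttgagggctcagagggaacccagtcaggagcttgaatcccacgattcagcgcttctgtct

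The ETS core, AGGAAG, was present in 8 of the 11 promoters, against 35.4% of all 32851 mouse promoters of this length. The E-box, CAGNTG with N for any base, was present in 10 of the 11, against 51.4% of all. The RUNX core TGTGGT occurred in 3 promoters, against 16.8% of all. The SP1 box occurred in 2, against 35.7%, and was searched as GGGCGG. The TATA box was found in 0 of the 11, against 13.6% of all, and its letters were TATAAA. These are matches of letters and not measured binding. The Cd3d and Cd3g promoters face away from each other on opposite strands and lay in one region of open chromatin, at chr9:44979087-44982259.

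RNA of both CD8 chains and of the 3 CD3 chains was lower in LC3-GFP positive cells, by small amounts. Zeta, the 2 kinases and Lat did not pass the test. In edgeR's quasi-likelihood fit, with p adjusted over 12022 genes by Benjamini-Hochberg (threshold 0.05), 5 of the 9 genes fell and 0 rose. Among all genes tested 13.6% fell and 11.3% rose, 25% in all. The median log2 fold change, positive over negative, was -0.14 over the 9 genes and 0.0023 over all genes. In bulk RNA, fewer cells of a type and less RNA per cell cannot be told apart.

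Cd8a, which binds the class I MHC molecule and Lck, had 524 and 534 CPM in the positive libraries, against 583 and 618 CPM in the negative libraries. The groups did not overlap, and the log2 fold change was -0.18 (SE 0.045, adjusted p = 0.0062, edgeR). Cd8b1, its partner chain, had 249.6 and 257 CPM in positive cells, against 284 and 297 CPM in negative cells. Both negative libraries were above both positive ones, with a log2 fold change of -0.20 (SE 0.046, adjusted p = 0.0043, edgeR). The ratio of Cd8b1 to Cd8a counts was 0.477 and 0.481 in positive cells, against 0.487 and 0.481 in negative cells, so that the 2 chains kept nearly the same proportion in the 4 libraries.

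Cd3e, the chain that pairs with both Cd3d and Cd3g, had 359 and 337 CPM in positive cells, against 409 and 390.4 CPM in negative cells. Its groups were apart, with a log2 fold change of -0.20 (SE 0.047, adjusted p = 0.0045, edgeR). Cd3d had 192 and 193 CPM in positive cells, against 209 and 234 CPM in negative cells, and fell by 0.20 on the log2 scale (SE 0.053, adjusted p = 0.010, edgeR). The negative libraries of Cd3d were spread more widely than the positive ones, without overlap. Cd3g had 234 and 233 CPM in positive cells, against 258 and 255 CPM in negative cells, and fell by 0.14 (SE 0.045, adjusted p = 0.032, edgeR). It changed least of the 5 genes that passed.

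Cd247, which encodes zeta, the chain with the most tyrosine motifs, had 157 and 163 CPM in positive cells, against 154 and 164 CPM in negative cells. The groups overlapped, with a log2 fold change of 0.0038 (95% interval -0.10 to 0.11, adjusted p = 0.97, edgeR). In the count table the 3′ end of Cd247 lies inside the body of Pou2f1 on the other strand, and whether reads were counted by strand is not given. The ratio of Cd247 to Cd3e counts was 0.436 and 0.484 in positive cells, against 0.377 and 0.421 in negative cells. That ratio had no overlap between the groups, but the lower positive value, 0.436, was close to the higher negative one, 0.421. Groups of 2 often lie apart, as the CPM of 61.5% of all genes tested did, and the ratio was not tested.

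Lck, the kinase that phosphorylates the CD3 and zeta motifs, had 528 and 534 CPM in positive cells, against 585 and 557 CPM in negative cells. The groups did not overlap, but the difference did not pass the test (log2 fold change -0.11, 95% interval -0.20 to -0.013, adjusted p = 0.089, edgeR). Zap70 had 197 and 190.3 CPM in positive cells, against 214 and 187 CPM in negative cells, and the groups overlapped (log2 fold change -0.054, 95% interval -0.17 to 0.066, adjusted p = 0.54, edgeR). Lat had 242 and 239 CPM in positive cells, against 234 and 234 CPM in negative cells (log2 fold change 0.041, 95% interval -0.053 to 0.14, adjusted p = 0.55, edgeR). With Lck and Lat, 7 of the 9 genes had groups that did not overlap, and the same was true of 61.5% of all genes tested.

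**Figure D1:**
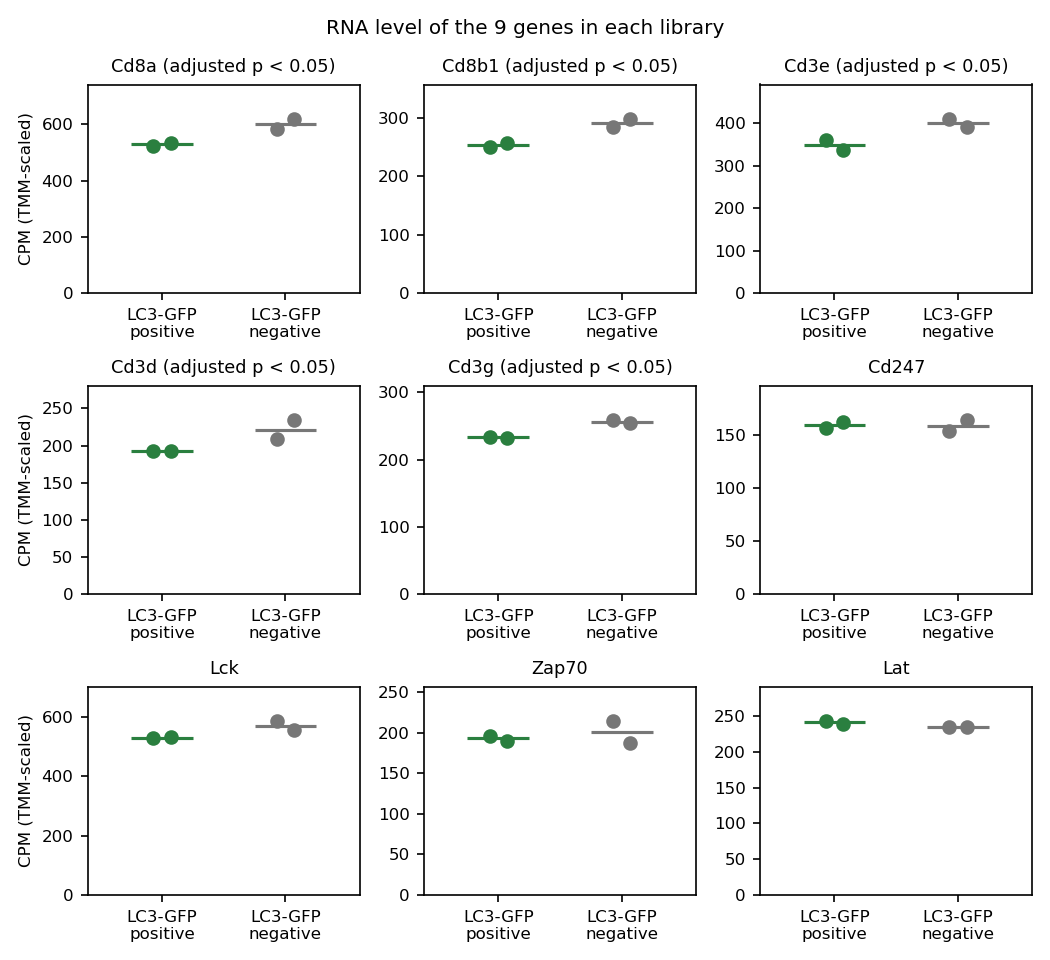
RNA level (CPM, TMM-scaled, axes from 0) of each of the 9 genes in the 2 LC3-GFP positive libraries (green, left) and the 2 negative libraries (grey, right), with horizontal lines at the means. Cd8a, Cd8b1, Cd3e, Cd3d and Cd3g sit lower in positive cells, while Cd247 and Zap70 overlap.

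Leaving out either positive library took 4 of the 5 calls away. Without positive replicate 1 only Cd3e passed (adjusted p = 0.016, edgeR), and without positive replicate 2 only Cd8b1 passed (adjusted p = 0.035, edgeR). Without negative replicate 2, Cd3d missed the threshold while Lck (adjusted p = 0.00086, edgeR) and Zap70 (adjusted p = 0.010, edgeR) passed as lower. DESeq2 called the same genes except Cd3g (adjusted p = 0.11). When libraries were scaled by their totals and not by TMM, the 5 genes were still lower, but only Cd3e and Cd8b1 passed, and the share of called genes that were higher was 65.1% in place of 45.4%.

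The genes that act on or beside the complex were taken from lists made with earlier results of these data known. Of 91 such genes tested, 11 rose and 29 fell in positive cells, with a median log2 fold change of -0.044, beside the 11.3% higher, the 13.6% lower and the median of 0.0023 over all genes tested. Runx3 and Fyn, named below with their lists, were chosen after their values were seen.

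Among 11 genes that control Lck, 1 rose, 4 fell and 6 did not pass. Ptpn22, a phosphatase that removes activating phosphates from Lck and Zap70, fell by 0.45 on the log2 scale (adjusted p = 8.7e-07, edgeR). Unc119, a lipid-binding adaptor of Lck, fell by 0.41 (adjusted p = 0.0013, edgeR), and Fyn, the second Src-family kinase of T cells, fell by 0.32. Ptpn6, the phosphatase SHP-1, rose by 0.15 (adjusted p = 0.024, edgeR). Among 16 genes of the complex that forms on Lat, 1 rose, 7 fell and 8 did not pass. Txk, a Tec-family kinase, had 20.1 and 15.9 CPM in positive cells, against 53.1 and 57.8 CPM in negative cells. Its log2 fold change of -1.61 (SE 0.099, adjusted p = 1.6e-09, edgeR) was the largest fall in these lists. The adaptor Sh2d2a, which binds Lck, fell by 0.35, and Themis, a thymocyte selection adaptor bound to Grb2, rose by 0.26.

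Of 15 genes that damp receptor signalling, 2 rose, 7 fell and 6 did not pass. Lax1, an adaptor that limits signalling, had 19.4 and 21.3 CPM in positive cells, against 31.9 and 35.2 CPM in negative cells (log2 fold change -0.72, adjusted p = 2.6e-05, edgeR). Ubash3b, a phosphatase that acts on Zap70, fell by 0.54. The ubiquitin ligase Cbl rose by 0.36, and Sla, an adaptor that promotes receptor turnover, rose by 0.21. Of 7 coreceptor and costimulation genes tested, 3 rose, 1 fell and 3 did not pass. The adhesion receptor Cd226 rose by 0.30 and Cd2 fell by 0.14. Cd4 had 4.40 and 3.39 CPM in positive cells, against 0.971 and 0.699 CPM in negative cells (log2 fold change 2.21, adjusted p = 0.00014, edgeR), which is a low level in each library.

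Of 20 genes of calcium, NFAT and NF-kB signalling, 1 rose, 6 fell and 13 did not pass. The inositol trisphosphate receptor gene Itpr1 rose by 0.20, and Itpr3 fell by 0.37. Of 10 genes induced by receptor signals, 1 rose, 1 fell and 8 did not pass. Irf4, a transcription factor whose level follows receptor signal strength, rose by 0.25, and Egr1 had 2.56 and 2.51 CPM in positive cells, against 4.47 and 4.20 CPM in negative cells (log2 fold change -0.77, adjusted p = 0.032, edgeR). Of 12 transcription factors that act on the Cd8 genes or T cell identity, 2 rose, 3 fell and 7 did not pass. Runx3, which binds the Cd8 enhancers, had 287 and 277 CPM in positive cells, against 353 and 339.5 CPM in negative cells, and fell by 0.30 (adjusted p = 0.00011, edgeR). Tcf7 rose by 0.49, Cbfb, the partner of RUNX proteins, rose by 0.16, Gata3 fell by 0.38, and Zbtb7b, a repressor of Cd8 genes, fell by 0.48.

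**Figure D2:**
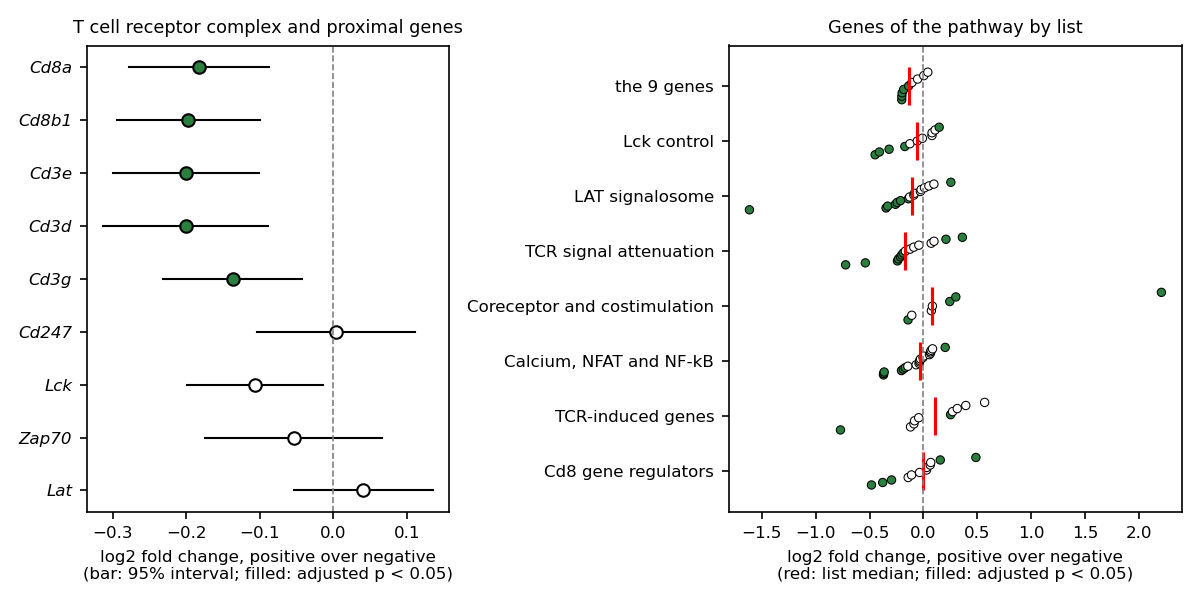
Log2 fold changes of RNA (LC3-GFP positive over negative) for the 9 genes with 95% intervals (left) and for the pathway lists with 1 point per gene and a red line at the median (right), where filled points passed the test. The 5 coreceptor and CD3 genes lie between -0.20 and -0.14, and the ends of the lists are Txk at -1.61 and Cd4 at 2.21.

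Of the 22 genes that the naming rule took from the lists, 15 stayed past the threshold in all 10 alternative analyses. Ptpn6, Sla, Cd2, Cd226, Itpr1, Cbfb and Egr1 each lost their call in 1 to 4 of them.

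Of the 12 other genes beside the 9 loci, 3 rose, 0 fell and 9 did not pass, a share called equal to the 25% over all genes. Rmnd5a, next to Cd8a, rose by 0.15 (adjusted p = 0.034, edgeR) where both CD8 chains fell. Hdac1, next to Lck, rose by 0.25 (adjusted p = 0.0029, edgeR), and Sbk1, next to Lat, rose by 0.40 (adjusted p = 0.0055, edgeR). Krcc1, Mpzl2, Ube4a, Creg1, Pou2f1, Eif3i, Actr1b, Tmem131 and Spns1 did not pass, with log2 fold changes between -0.24 and 0.16. Rmnd5a (adjusted p = 0.35, edgeR) and Sbk1 (adjusted p = 0.12, edgeR) lost their calls when positive replicate 1 was left out, and Rmnd5a also missed the threshold without positive replicate 2 (0.10) and with DESeq2 (0.12).

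Some markers of other cell types differed between the groups, the B cell and myeloid genes at low levels. Of 8 B cell genes, 7 were listed, 6 were tested and 5 were higher in positive cells, with a summed level of 15.0 and 13.5 CPM there, against 4.47 and 6.01 CPM in negative cells. Cd79a, part of the B cell receptor and chosen here after its values were seen, was at 2.06 and 2.01 CPM in positive cells, against 0.129 and 0.140 CPM in negative cells. Of 5 myeloid and dendritic genes tested, 1 was higher and 2 were lower, with sums of 6.96 and 8.29 CPM in positive cells, against 14.6 and 14.3 CPM in negative cells. Lyz2, Csf1r and Adgre1 were not among the tested genes. Of 4 NK cell genes tested, 0 were higher and 2 were lower, with sums of 36.9 and 38.4 CPM in positive cells, against 106 and 98.7 CPM in negative cells, and Eomes, which CD8+ T cells also express, made up most of them. Of the CD4 T cell genes tested, Cd4 was higher and Zbtb7b lower, and of 3 melanoma and stroma genes and 1 gamma-delta gene tested, 0 were called. The part of these cells in the lower Cd8 and CD3 levels was not tested.

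In vitro, every one of the 9 loci except Cd8a had a smaller share of open chromatin in both positive libraries than in either negative library. Open chromatin at a locus was taken as the bases under peaks there, in parts per 1000000 (ppm) of all bases under peaks in that library. At 8 of the 9 loci the positive libraries were lower without overlap, and at 0 they were higher. Of 12917 genes with a peak, 26.6% were lower without overlap and 17.6% were higher, 44.2% in all. In covered bases not scaled by the library, the groups also overlapped at Lck and Lat, and the share over all genes in that setting is not given here. The median log2 ratio, positive over negative, was -0.55 over the 9 loci and -0.062 over all genes. The smallest two-sided exact permutation p that 2 against 2 can give is 0.333, so the difference could not pass a test.

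The CD8 chains differed from each other here. Cd8b1 had 20.2 and 24.5 ppm in positive libraries, against 36.0 and 42.9 in negative libraries, a ratio of 0.566. Cd8a had 19.4 and 15.6, against 18.9 and 18.4, and its groups overlapped. At the CD3 loci, Cd3e had 72.1 and 61.6 ppm in positive libraries, against 97.4 and 108 in negative libraries, a ratio of 0.652. Cd3d had 57.1 and 66.4 in positive libraries, against 78.1 and 85.6 in negative libraries, a ratio of 0.754. Cd3g had 43.4 and 29.7 in positive libraries, against 56.6 and 60.2 in negative libraries, a ratio of 0.626. The Cd3d and Cd3g loci share 1 region, so their values are not separate measurements.

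Cd247, whose RNA did not pass the test, had 146 and 153 ppm in positive libraries, against 217 and 225 in negative libraries, a ratio of 0.678. Zap70 had 54.1 and 58.2 in positive libraries, against 76.5 and 88.2 in negative libraries, a ratio of 0.681. Both loci were apart between the groups although their RNA was not. Lat had 35.8 and 32.4 in positive libraries, against 41.8 and 45.0 in negative libraries, and Lck 60.3 and 61.8, against 64.6 and 68.9. Lck differed least of the 8 loci, with a ratio of 0.914.

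At the level of whole regions, 18 of the 31 regions at these loci were found in all 4 in vitro libraries, 0 were found in both positive libraries alone and 1 was found in both negative libraries alone. Over all regions the shares were 53.8% in all libraries, 8.03% positive-only and 3.32% negative-only. The negative-only region was chr1:165867841-165868777 in mm10, inside Cd247 and 79.2 to 80.1 kb from its start, where the body of Pou2f1 also lies. The 8 B cell marker loci together had 999 and 995 ppm in positive libraries, against 619 and 642 in negative libraries, and each of the 8 had a peak in all 4 libraries. Ebf1 held the most of their peaks, with 41 and 35 in positive libraries, against 26 and 25 in negative libraries, while Jchain had 1 peak in each library and Cd22 had 2 and 2, against 3 and 2. The 9 myeloid and dendritic loci had 431 and 439 ppm in positive libraries, against 371 and 381 in negative libraries. The 4 loci of the CD4 list had 92.5 and 127, against 153 and 159. The 4 loci placed from the gamma-delta list had 163 and 159 ppm in positive libraries, against 194 and 211 in negative libraries. For the 6 melanoma and stroma loci the values were 279 and 263, against 312 and 297, and for the 7 NK cell loci 236 and 237, against 215 and 237. The part of such cells in the lower shares at the T cell receptor loci was not tested.

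**Figure D3:**
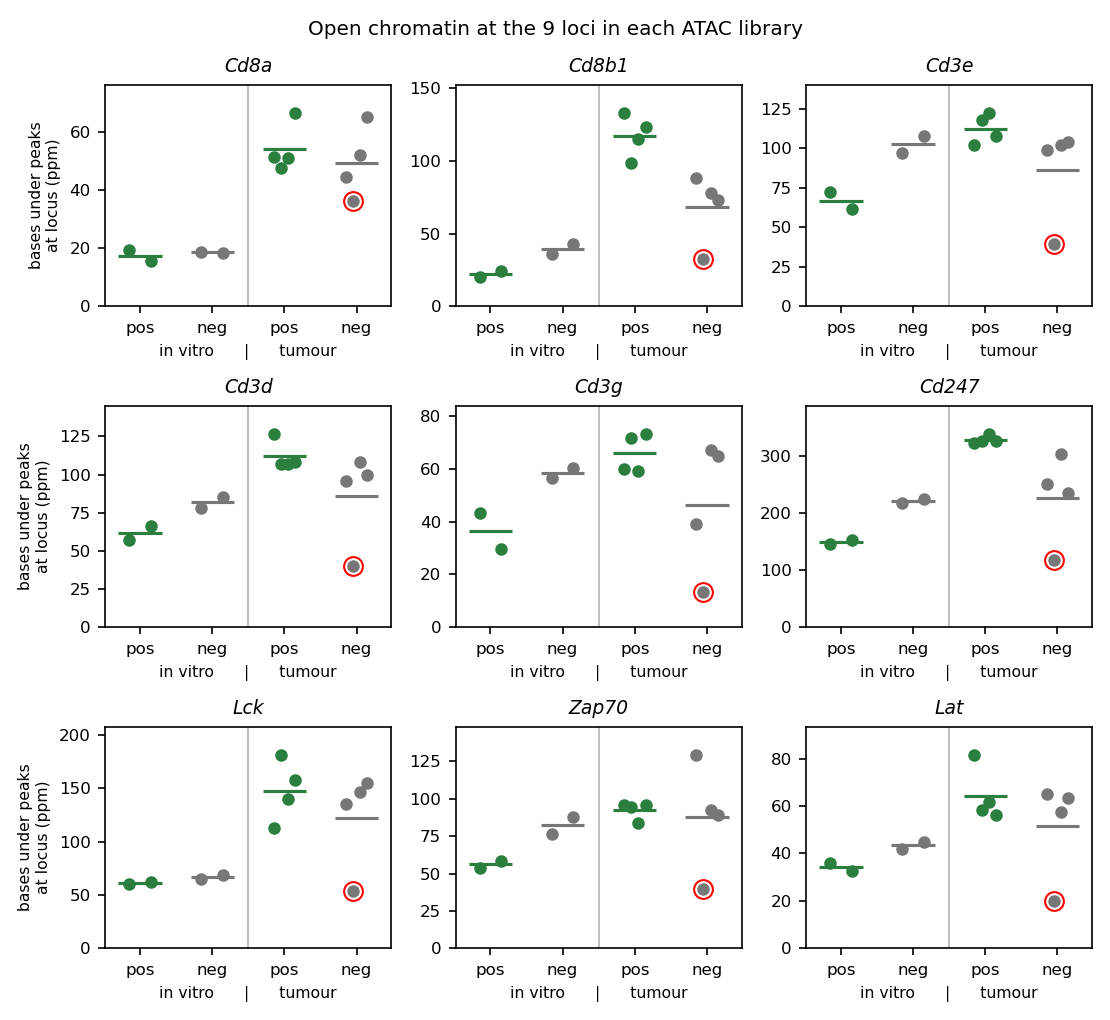
Bases under peaks at each locus (gene body with 2 kb on each side) in ppm of all bases under peaks in the library, for LC3-GFP positive (green) and negative (grey) libraries in vitro (2 and 2, left of the line) and in tumours (4 and 4, right), with lines at the means. In vitro 8 loci are lower in positive libraries, and in tumours in vivo negative replicate 2 (red circle) is the lowest of its experiment at all 9 loci.

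In the tumour, 1 library stood apart. In vivo negative replicate 2 had the most peaks (55171) and the lowest share of open chromatin at all 9 loci among the 8 libraries. Its share over the 9 myeloid and dendritic marker loci was 535 ppm, against 263 to 323 in the other 7 libraries, and all 9 of those loci had a peak there. It alone had peaks at Lyz2 and Adgre1 (macrophage genes) and at Dct (a melanocyte gene), and it had 3 peaks at Csf1r. Other melanocyte genes did not follow Dct, with 0 peaks at Tyr, 1 at Mlana and 3 at Pmel in each of the 8 libraries. Over the 6 melanoma and stroma loci its share was 242 ppm, against 317 to 402 in the other 7 libraries. The part of in vivo negative replicate 2 in the results was not tested beyond the values without it that follow.

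Cd8b1 and Cd247 had more open chromatin in positive than in negative cells from the tumour, without overlap. Cd8b1 had 133, 98.5, 115 and 123 ppm in positive libraries, against 88.6, 32.9, 78.3 and 73.4 in negative libraries. The means were 117 ± 14.5 and 68.3 ± 24.5 (SD, n = 4 each), a ratio of 1.72 with a two-sided exact permutation p = 0.0286, the smallest that 4 against 4 can give. Cd247 had 323, 325, 337 and 326 in positive libraries, against 250.3, 118, 302 and 235 in negative libraries. The means were 328 ± 6.49 and 227 ± 77.7 (SD, n = 4 each), a ratio of 1.45 with exact p = 0.0286. Adjusted over 12900 genes both had p = 0.405, and 0 genes passed the adjusted threshold, with 911 (7.06%) at an unadjusted p under 0.05 by the exact permutation test. At the loci 2 of 9 were higher and 0 lower without overlap, against 5.08% and 1.98% of all genes.

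Without in vivo negative replicate 2, Cd8b1 had a ratio of 1.46 (exact permutation p = 0.057) and Cd247 a ratio of 1.25 (exact permutation p = 0.029), and the groups still did not overlap at either locus. With the same number of peaks kept in each library, Cd247 stayed apart, while Cd8b1 overlapped with p = 0.26 by the exact permutation test. In that setting 1 of the 9 loci was higher and 0 lower without overlap, against 4.16% and 2.47% of all genes. In covered bases not scaled by the library, Cd8b1 stayed apart but Cd247 overlapped. Cd247 had 8883 bases in positive replicate 1, against 9173 and 12712 in negative replicates 1 and 3. The number of all genes apart in that setting is given below.

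The other 7 loci overlapped between the groups. Cd3e, with 102, 118, 122 and 108 ppm in positive libraries, against 98.9, 39.6, 102 and 104 in negative libraries, had an exact permutation p = 0.057. Cd3d had a median of 108 in positive libraries, against 98.1 in negative libraries, and Cd3g 65.6, against 52.0. Lck had a median of 149, against 141, and ranged from 113 to 181 in positive libraries, against 53.3 to 155 in negative libraries. For Cd8a, Zap70 and Lat the medians were 51.3, 95.1 and 60.1 in positive libraries, against 48.3, 90.9 and 60.5 in negative libraries. Without in vivo negative replicate 2 the log2 ratio was 0.0074 for Cd8a, 0.022 for Lck, 0.056 for Lat and -0.16 for Zap70. It was 0.15 for Cd3e (exact permutation p = 0.11), 0.14 for Cd3d and 0.21 for Cd3g. With that library it was 0.39 for Cd3e, 0.38 for Cd3d, 0.51 for Cd3g, 0.13 for Cd8a, 0.27 for Lck, 0.32 for Lat and 0.078 for Zap70. The median log2 ratio over all genes was 0.12 with it.

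Of the 39 in vivo regions at these loci, 17 were found in all 8 libraries and 0 were found in all libraries of one group and none of the other. Over all regions 29% were in all libraries, 0.691% were positive-only and 1.04% were negative-only.

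The regions at these loci were then set side by side before transfer and in the tumour. The experiments differ in host, time and number of cells, which cannot be told apart, so no test was made. With the peaks of all 12 libraries merged, 42 of 94635 regions lay at the 9 loci. Of these, 16 (38.1%) were found in every library, against 21.2% of all regions. These 16 include the merged regions that span the gene starts. They also include the merged regions beyond the 3′ ends of Cd8a and Cd3g, whose in vitro peaks lay outside the 2 kb extension. The start of Cd3d lies in the region it shares with Cd3g and was itself under a peak in 2 of 4 in vitro libraries, both negative, and in 5 of 8 in vivo libraries. A further 10 (23.8%) were found in part of the in vivo libraries and in 0 in vitro, against 23.1% of all. Regions found in part of the in vitro libraries and in 0 in vivo numbered 3 (7.14%), all inside Cd247, against 19.3% of all. Found in every in vivo and 0 in vitro libraries were 0, against 0.173% of all, and the reverse held for 0, against 4.76% of all.

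At Cd8b1 the gene-start region was in every library, but the regions inside the gene were mostly called in the tumour. The region 7.2 to 8.9 kb from the start was called in 8 of 8 in vivo libraries and 1 of 4 in vitro, and that 9.3 to 11.5 kb away in 7 of 8 and 1 of 4. The region 2.0 to 3.0 kb from the start was called in 3 of 8 in vivo libraries, all of them positive, and in 0 of 4 in vitro. Cd8a held a merged region 7.4 to 9.1 kb from its start, beyond its 3′ end, in every library. The in vitro peaks in that region lay outside the 2 kb extension. In the interval between the 2 genes, which carries their shared enhancers, 6 regions were called, of which those 29.9 to 32.6 kb and 19.4 to 22.2 kb upstream of Cd8a were in every library.

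Cd247 had 14 regions, the most of the 9 genes, of which 2 were in every library. The one 48.5 to 49.6 kb from the start was in 4 of 4 positive and 2 of 4 negative tumour libraries and in 0 in vitro, and the one 21.6 to 22.9 kb away was in 4 positive and 1 negative tumour libraries, but in 1 of 2 positive and 2 of 2 negative libraries in vitro. Lck had open chromatin at both of the promoters printed above in every library, and a region 7.8 to 9.0 kb from the distal start, between them, in 4 of 4 positive and 2 of 4 negative tumour libraries and in 0 in vitro. Other regions were called in fewer positive than negative tumour libraries. The Lck region 3.1 to 3.7 kb from the start was in 1 positive and 3 negative libraries, and the Zap70 region 10.6 to 11.1 kb from the start was in 0 positive and 2 negative libraries. The Lck region 16.3 to 18.5 kb away and the Cd247 region 12.5 to 15.8 kb away were each in 3 positive and 4 negative libraries. Cd3e and Cd3d each had 2 regions in every library. Cd3g shared its gene-start region with Cd3d, and its second constant region, 12.7 to 15.5 kb away, also spans the start of Ube4a. Zap70 had 3 of its 6 regions in every library, and Lat had a single region, at its start.

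**Figure D4:**
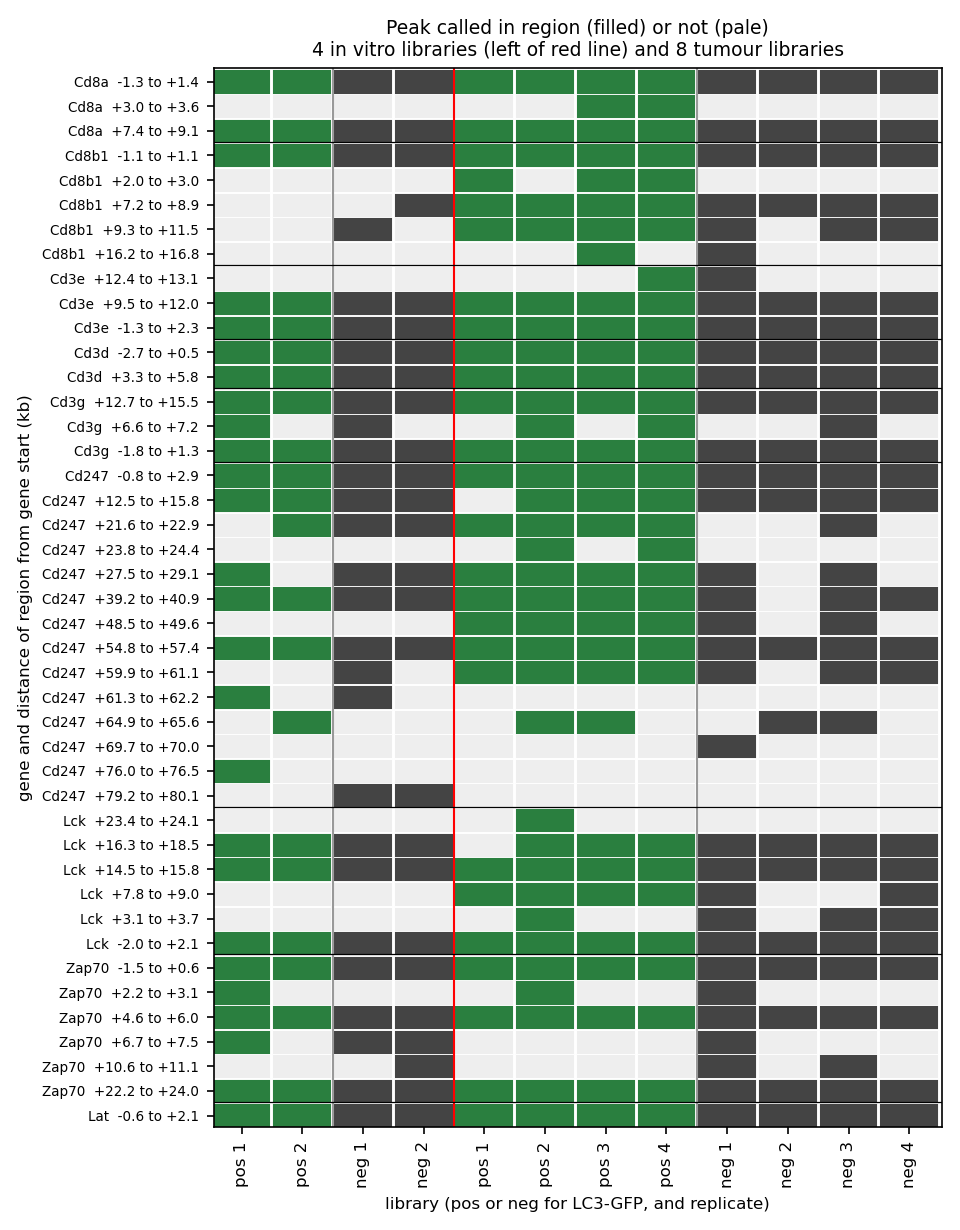
Each row is a region of open chromatin at 1 of the 9 loci, labelled by its distance from the gene start in kb (positive distances run in the direction of transcription), and each column is a library, green for LC3-GFP positive and dark grey for negative where a peak was called. Rows that span a gene start are filled in all 12 libraries (that of Cd3d through the region it shares with Cd3g). Several rows inside Cd8b1, Cd247 and Lck are filled mostly in the 8 tumour libraries right of the red line. Inside Cd247, 3 rows are filled only in vitro.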

How the data were processed

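Per the submitters' processing notes, the build was mm10, RNA was processed using Partek, STAR and DESeq2, and ATAC data using Partek, cutadapt, BWA and MACS2. Versions, strand and counting rules are not given in the sources used here. The authors deposited estimated counts per gene, not scaled, and peaks called in each library, with pileup signal, fold enrichment and −log10 p-value and q-value per peak, per the file headers. Those peak values served to rank and filter peaks inside one library. ATAC read depth is unknown.

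Estimated counts were rounded to whole numbers, filtered with filterByExpr, scaled by TMM and tested with edgeR 4.0.16 (R 4.3.3). DESeq2 1.42.0 was an alternative. CPM was computed here. ATAC peaks were merged at an overlap of at least 1 bp, and loci were gene bodies from the authors' count table extended by 2 kb. Marker loci used RefSeq GRCm38.p6. Tests over libraries were two-sided exact permutation tests. Scripts were tested on simulated data. Promoter motifs were searched on both strands. Python 3.11.15 was used.

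Named genes were the 9 members, up to 2 rises and 2 falls per pathway list among adjusted p under 0.05, ranked by fitted fold change, and the nearest tested gene on each side of each locus. A gene that this rule takes is not reported here. The members and lists were chosen with earlier results of these data known. Groups follow the cell population in the labels. Alternatives tried were other scaling factors, no filter, no Rn45s, a replicate block, each library left out, stricter peaks, equal peak numbers, no extension and unscaled bases.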

Additional observations from a re-analysis of the deposited data

Results flagged for a closer look

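Cd8b1 and Cd247 had opposite differences in open chromatin before and after transfer. At Cd8b1 the log2 ratio of covered bases, positive over negative, was -0.82 in vitro and 0.78 in vivo, and at Cd247 it was -0.56 in vitro and 0.53 in vivo. Every positive library was below every negative one in vitro, and every positive library was above every negative one in the tumour. Over all genes, 26.6% were lower without overlap in vitro and 5.08% were higher without overlap in the tumour. The share of genes with both was not counted. In the tumour, Cd8b1 overlapped with equal numbers of peaks, and Cd247 overlapped with unscaled bases. The difference between the experiments was not tested.

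In the in vivo groups of 4, 18 groups were examined for a sample far from the other 3, and chance alone would mark about 5% of groups. The loci were measured in the same libraries, so these groups are not independent of each other. The share of covered bases at Cd3e was 39.6 ppm in negative replicate 2, with the nearest sample at 98.9, and at Lat it was 20.2 in the same library, with the nearest at 57.7. At Cd3d positive replicate 1 had 126 ppm, with the nearest at 108, and at Zap70 positive replicate 3 had 83.9, with the nearest at 94.6.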

How the results depend on the processing

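In the RNA comparison, calls over all genes were 3000, against 1688 with DESeq2 and 1722 to 3451 with 1 library left out. Of the 9 genes, 5 fell, against 2 with library size alone and 1 to 6 with 1 library left out, the cause of which was not tested. Of the 34 other genes that the naming rule takes, 6 lost their call with DESeq2 and 9 without positive replicate 1. Small, uncalled differences changed sign. Zap70 had a log2 fold change of 0.0086 with library size alone. With 1 library left out it ranged from -0.15 to 0.049, Cd247 from -0.041 to 0.049, Creg1 from -0.074 to 0.21 and Eif3i from -0.016 to 0.063.

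Replicate numbers are shared by the RNA groups, but with 2 pairs they are not shown to mark a pairing (the deviations of same-numbered libraries correlated at 0.065). With the number as a replicate block, 3568 genes were called and 5 of the 9 fell. In vivo mice of the 2 groups are different animals. A sign-flip test over same-numbered mice, as a replicate block, gave an exact p = 0.125 for Cd8b1 and Cd247, the smallest that 4 pairs allow.

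In vitro, positive-only regions at the 9 loci numbered 0, and 0 to 2 with 1 library left out. Negative-only ones numbered 1, against 3 at −log10 q of at least 5, 2 when peaks had to cover at least 50% of a region, 2 with equal numbers of peaks and 2 to 3 with 1 library left out. Over all regions, positive-only ones numbered 7068 to 13304 with 1 library left out, and negative-only ones 3824 with equal numbers of peaks and 3144 to 6530 with 1 left out. For covered bases, the in vitro alternatives were chosen after seeing the data. With 1 library left out, 0 to 1 of the loci were higher without overlap, and 8606 to 10045 of all genes were apart. With unscaled bases the log2 ratio was 0.088 for Cd8a and 0.039 for Lck, and Cd8a ranged from -0.26 to 0.056 with 1 library left out.

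In vivo, positive-only regions at the loci numbered 0, against 1 at −log10 q of at least 5, 2 with 50% coverage, 2 with equal numbers of peaks and 0 to 1 with 1 library left out. Regions in all 8 libraries numbered 17, against 9 with 50% coverage and 5 with equal numbers of peaks. Over all regions, equal numbers of peaks gave 770 positive-only and 308 negative-only, and leaving out 1 library gave 541 to 1208 and 763 to 1319. Loci higher without overlap numbered 2, against 1 with equal numbers of peaks (Cd247) and 1 with unscaled bases (Cd8b1). Genes apart numbered 555 with unscaled bases and 1194 to 1602 with 1 library left out. Unscaled bases gave a log2 ratio of -0.014 for Cd8a and -0.025 for Zap70, equal numbers of peaks gave -0.16 for Cd3g, and Zap70 ranged from -0.16 to 0.33 with 1 library left out.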

Other observations

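The peaks over the gene starts are described here by the authors' own fold enrichment over local background, which can be read only within a library. Lat was at 5.44 to 6.70 in vitro and 4.68 to 6.90 in vivo. Ranked by −log10 q within its own library, the Lat peak was in the top 6.35% to 15.6% of the lists in vitro and in the top 11.5% to 36.3% in vivo. Cd3e was at 3.73 to 5.15 in vitro and 3.83 to 6.09 in vivo, and within each library it was below Lat. The Lck start was at 2.09 to 2.53 in vitro and 2.08 to 2.71 in vivo, and the Cd3d start was under a peak in 2 of 4 in vitro and 5 of 8 in vivo libraries.

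Zap70 has 3 promoters in the RefSeq table. The first lay under a peak in every library, the second in 1 of 4 in vitro and 2 of 8 in vivo libraries, and the third in 0 of 12.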
